A study of Bos taurus with 6 samples.

Results

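The genes described here are 5 components of Toll-like receptor signalling, chosen by gene identifier from the 28522 gene rows measured: TLR4 (ENSBTAG00000006240), TLR2 (ENSBTAG00000008008), CD14 (ENSBTAG00000015032), MYD88 (ENSBTAG00000000563) and NFKB1 (ENSBTAG00000020270). They were followed by mRNA sequencing in MAC-T cells, an immortalised line of bovine mammary epithelium. All cells received a synthetic small RNA at 50 nM and were collected 48 h later. In 3 libraries this was a miR-199a-3p mimic, which supplies the activity of that microRNA, and in 3 it was a negative control (NC) mimic. The labels name no bacterial ligand or other inflammatory stimulus in either group, so the values are those of transfected cells without a named challenge. No untransfected cells were analysed here. All libraries come from 1 cell line, and the labels say only that the experiment was in triplicate, so the spread behind the p-values may be partly or wholly technical.

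Toll-like receptors are membrane proteins that recognise conserved molecules of microbes. TLR4 responds to lipopolysaccharide of Gram-negative bacteria, which CD14 delivers to it, and TLR2 responds to bacterial lipoproteins, with CD14 again able to assist. Both pass the signal through the adaptor MYD88 to kinases that release NF-kB, a family of transcription factors for which NFKB1 encodes the p105 precursor and its p50 product. In the udder these receptors on epithelial cells take part in the first response to bacteria that cause mastitis. The series was designed around the part of miR-199a-3p in inflammation of these cells, and the comparison asks whether the transcripts of the receptors and of their partners differed when the microRNA was supplied.

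None of the 4 genes that could be tested passed in the comparison of the mimic with NC over all 6 libraries. TLR4 was 1.25-fold higher with the mimic, NFKB1 1.14-fold and MYD88 1.11-fold, and TLR2 was at 0.994 of its NC level. CD14 was barely detected, with 9 counts in all NC libraries together and 29 in all mimic libraries. For TLR4 and NFKB1 the outcome turned on 1 library, NC replicate 2, without which both rose. In the fit without it, 24.5% of 14126 genes tested changed and 13.2% rose. Of the 5 genes, 4 passed the filter on low counts and were tested, and CD14 did not. The tests were made with edgeR's quasi-likelihood method on counts over 13949 genes, two-sided, at a Benjamini-Hochberg adjusted p under 0.05. With all 6 libraries 11.8% of all genes tested changed, 7.38% upwards and 4.4% downwards. The result of 0 of 4 is therefore not far from the background.

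Total counts were 16303257 to 23720655 per library, in ranges that overlapped between the groups. NC replicate 2 stood apart from the rest. Across genes tested, which are not independent replicates, its log2 CPM correlated at 0.985 with each of the other NC libraries, which correlated with each other at 0.993, and the mimic libraries correlated among themselves at 0.993 to 0.994. For each result below the value without NC replicate 2 is therefore given where it differs. Values per library are in CPM, the count per 1000000 counts over the genes tested, corrected by the TMM factor of the library, which allows for differences in composition. They are not divided by gene length, so levels are compared between libraries and not between genes.

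**Figure D1:**
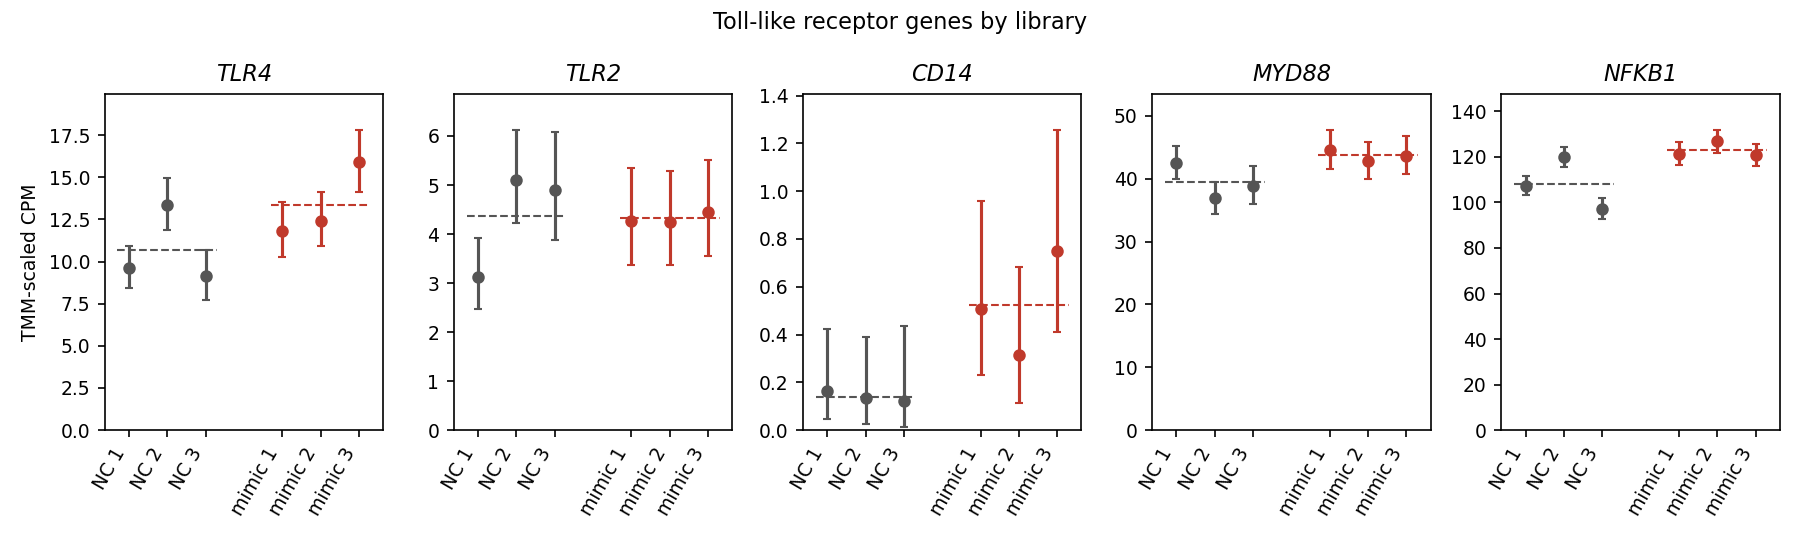
Each panel shows 1 gene in the 3 NC libraries (grey) and the 3 miR-199a-3p mimic libraries (red), in TMM-scaled CPM on a linear axis from 0. Points are libraries, bars are exact 95% Poisson intervals of the count, and dashed lines are group means. NC replicate 2 lies within the range of the mimic libraries for TLR4 and just under it for NFKB1, and CD14 is under 1 CPM in all libraries.

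TLR4, the receptor for lipopolysaccharide, was measured at 9.63, 13.4 and 9.12 CPM in NC replicates 1, 2 and 3, from 234, 301 and 151 counts. The mimic libraries held 11.8, 12.4 and 15.9 CPM, from 210, 237 and 297 counts. The groups overlapped, as NC replicate 2 lay above mimic replicates 1 and 2, while the other NC libraries lay below all mimic libraries. The means were 10.7 ± 2.32 CPM in NC and 13.4 ± 2.21 CPM with the mimic (SD, n = 3). This gave a log2 fold change of 0.32 ± 0.17 (standard error), which did not pass (edgeR adjusted p = 0.272). Its 95% interval ran from 0.950-fold to 1.63-fold, which leaves room for no change and for a moderate rise. The spread within each group was wider than counting gives, with coefficients of variation of 21.7% in NC and 16.5% with the mimic against 6.61% and 6.35% from counting alone. Without NC replicate 2 TLR4 rose 1.42-fold, with an interval of 1.17 to 1.72 (edgeR adjusted p = 0.00779, log2 fold change 0.50). In that fit 13.2% of all genes tested rose. Without mimic replicate 3, the highest library, the log2 fold change was 0.17 (edgeR adjusted p = 0.628), and over all 15 alternatives the adjusted p ranged from 0.00779 to 0.628.

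TLR2, the receptor for bacterial lipoproteins, was at 3.13, 5.11 and 4.89 CPM in NC replicates 1, 2 and 3, from 76, 115 and 81 counts. In the mimic libraries it was at 4.27, 4.25 and 4.45 CPM, from 76, 81 and 83 counts. The mimic libraries lay between the lowest and the highest NC library. The group means were 4.38 ± 1.08 CPM and 4.32 ± 0.109 CPM (SD, n = 3), a log2 fold change of -0.0083 ± 0.20 (standard error, edgeR adjusted p = 0.986). A change of TLR2 is not excluded by this, since its 95% interval ran from 0.727-fold to 1.36-fold. The spread of the mimic libraries, a coefficient of variation of 2.52%, was below the 11.2% that counting alone gives on average, so their closeness is no measure of precision. In NC the coefficient was 24.8% against 10.5% from counting. The sign of the estimate changed between alternatives, from -0.21 without NC replicate 1, the lowest library, to 0.14 without NC replicate 2, and TLR2 did not pass the test in any of the 15.

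CD14, the co-receptor that hands lipopolysaccharide to TLR4, held 4, 3 and 2 counts in NC replicates 1, 2 and 3 and 9, 6 and 14 counts in mimic replicates 1, 2 and 3. In CPM these were 0.165, 0.133 and 0.121 in NC and 0.506, 0.315 and 0.750 with the mimic. All mimic libraries lay above all NC libraries, and the exact 95% Poisson intervals of most of them overlapped. A count of 3, the limit that a count of 0 allows, corresponds to 0.124 to 0.181 CPM in these libraries, so the NC values lay at or near that limit. The ratio of the summed counts, scaled to the libraries, was 3.68. Its exact counting interval of 1.69 to 8.83 leaves out the spread between libraries beyond counting. CD14 failed the filter of at least 10 counts at the median depth. With no filter, and so over 19569 rows of which 8.58% changed, CD14 gave a log2 fold change of 1.82 ± 0.61 (standard error) and did not pass the test (edgeR adjusted p = 0.0769). The 95% interval of this fit ran from 1.47-fold to 9.07-fold and is not adjusted for the number of rows tested. Over the 12 alternatives run without the filter that gave an adjusted p, this ranged from 0.0723 to 0.331 and the log2 fold change from 1.47 to 2.09. Among them, the fit without NC replicate 2 gave a log2 fold change of 1.78 (edgeR adjusted p = 0.0876). The log2 fold changes from edgeR depend on the small count that it adds to both groups. As these are bulk libraries, a few cells with much CD14 and a low level in many cells cannot be told apart, and this holds for the other genes too.

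MYD88, the adaptor shared by TLR4 and TLR2, was at 42.5, 36.9 and 38.9 CPM in NC replicates 1, 2 and 3. It was at 44.6, 42.9 and 43.7 CPM in mimic replicates 1, 2 and 3. The lowest mimic library lay above the highest NC library by less than 1 CPM, which is within the Poisson interval of either. The counts behind these values were 644 to 1033. The means were 39.4 ± 2.85 CPM and 43.7 ± 0.866 CPM (SD, n = 3). The log2 fold change of 0.15 ± 0.07 (standard error) did not pass the test (edgeR adjusted p = 0.227). Its 95% interval ran from 0.988-fold to 1.24-fold in this fit. The upper limit on the log2 scale, 0.31 here, was 0.37 without NC replicate 1 and 0.37 without mimic replicate 2. Without NC replicate 1 the lower limit was 0.04, so that interval lay wholly above no change (edgeR adjusted p = 0.105). In every other alternative the interval included no change. Without NC replicate 2 the log2 fold change fell to 0.09 (edgeR adjusted p = 0.383). MYD88 did not pass in any of the 15 alternatives, whose log2 fold changes were 0.09 to 0.21 with adjusted p from 0.105 to 0.444.

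NFKB1, which encodes the precursor of the p50 subunit, was the most deeply counted of the 5, with 1610 to 2700 counts per library. NC replicates 1, 2 and 3 held 107.2, 119.9 and 97.2 CPM. Mimic replicates 1, 2 and 3 held 121.3, 126.9 and 120.7 CPM. The mimic libraries were close together and above the NC libraries, though NC replicate 2 lay within 1 CPM of the lowest of them. The means were 108.1 ± 11.4 CPM and 123.0 ± 3.38 CPM (SD, n = 3). The log2 fold change was 0.18 ± 0.08 (standard error), which did not pass (edgeR adjusted p = 0.174). The 95% interval, 1.003 to 1.29-fold, lay barely above no change and is not adjusted for the number of genes tested. On the log2 scale its lower limit was 0.0036, and other settings put it on either side of 0. It was 0.0088 with upper quartile scaling and -0.049 with library size as the only scaling. NFKB1 was the only 1 of the 4 genes tested with an edgeR p under 0.05 before adjustment, at 0.0465, which 27.6% of all genes tested reached. The NC libraries varied more than counting gives, at a coefficient of variation of 10.5% against 2.08%, while the mimic libraries, at 2.75% against 2.10%, did not differ much from it. Without NC replicate 2 NFKB1 rose 1.20-fold, with an interval of 1.10 to 1.30 (edgeR adjusted p = 0.00229, log2 fold change 0.26). In that fit 13.2% of all genes tested rose. Over all 15 alternatives the adjusted p ranged from 0.00229 to 0.409.

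**Figure D2:**
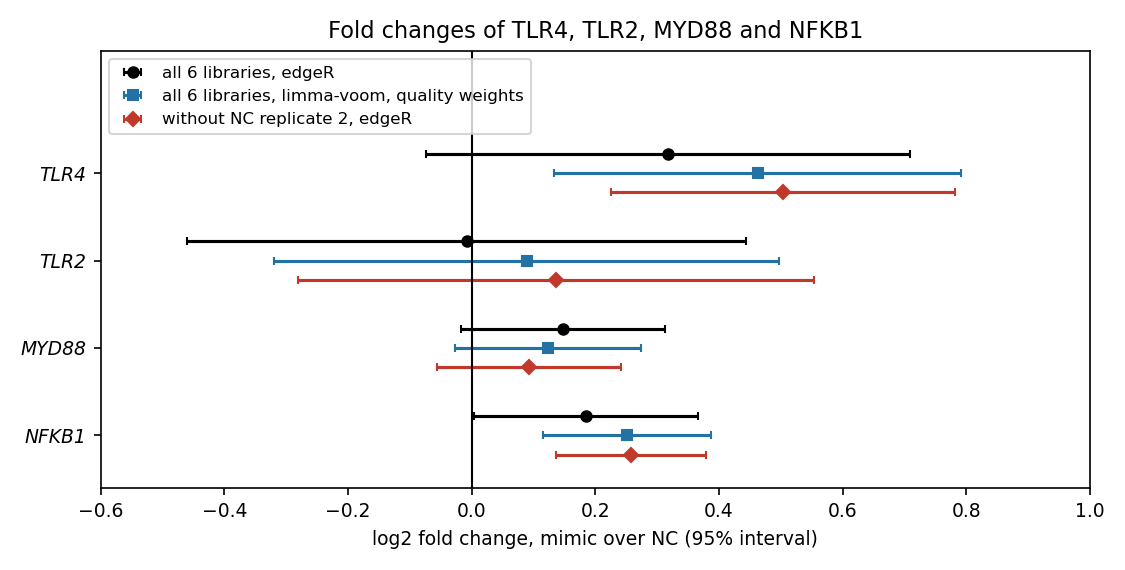
Log2 fold change of the mimic over NC for the 4 genes tested, with 95% intervals, from edgeR on all 6 libraries (black), limma-voom with a weight per library (blue) and edgeR without NC replicate 2 (red). The interval of NFKB1 lies wholly above 0 in all of them, though only just in the black fit, where its lower limit is 0.0036. That of TLR4 includes 0 in the black fit and lies wholly above 0 in the blue and red fits. Those of TLR2 and MYD88 include 0 in all of them.

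NC replicate 2 departed from the other NC libraries in different directions for different genes. Relative to the mean of NC replicates 1 and 3 it held 1.43 times as much TLR4, 1.27 times as much TLR2 and 1.17 times as much NFKB1. It held 0.907 times as much MYD88 and 0.934 times as much CD14, the latter from 3 counts. In that library 12.8% of all genes tested departed farther than TLR4, while for TLR2, NFKB1 and MYD88 the shares were 24.9%, 39.7% and 58.3%. For TLR4, TLR2 and NFKB1 the departure went upwards, and leaving the library out raised the estimates, while for MYD88 it lowered the estimate to 0.09. What set NC replicate 2 apart was not tested.

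Without NC replicate 2, 2 of the 4 genes changed, both upwards, where 24.5% of 14126 genes tested changed and 13.2% rose. A limma-voom fit that kept all 6 libraries and weighted each by its estimated spread gave the same pair. In it TLR4 was 1.38-fold higher (limma adjusted p = 0.0494, just under the threshold) and NFKB1 1.19-fold higher (limma adjusted p = 0.0134). NC replicate 2 received a weight of 0.246, the lowest, against 0.832 to 1.78 for the other libraries. The weighted fit and the fit without that library are therefore not separate evidence. In the weighted fit 19.2% of all genes tested changed, 10.9% upwards. The remaining 13 alternatives called 0 of the genes they tested, and CD14 was tested only where the filter on low counts was left out.

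**Figure D3:**
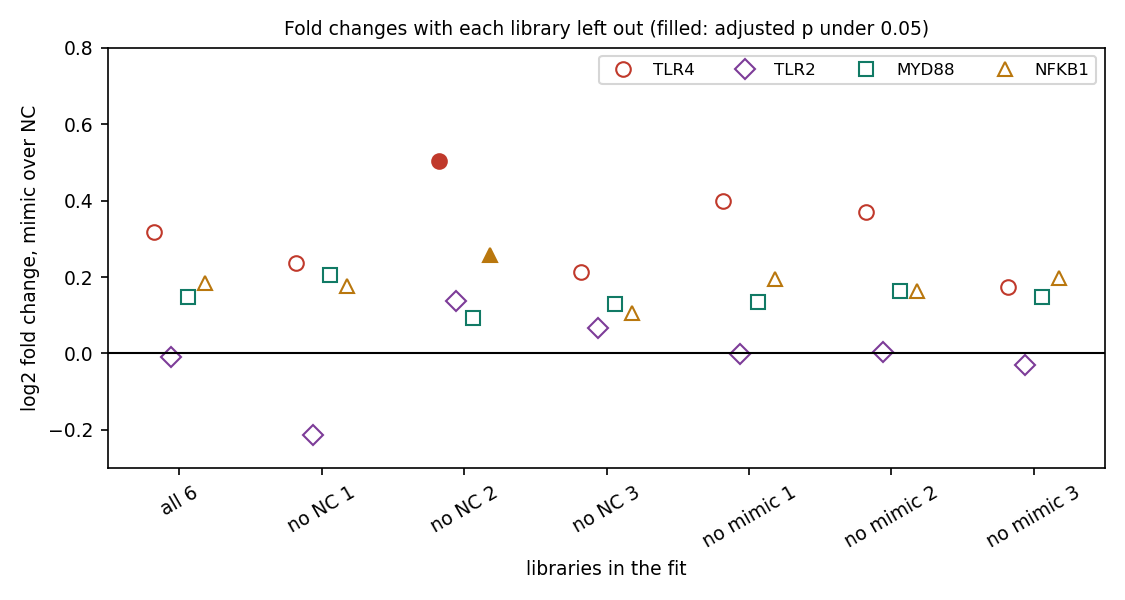
Log2 fold change of the mimic over NC for TLR4, TLR2, MYD88 and NFKB1 from edgeR with all 6 libraries and with each library left out in turn, with filled symbols at an adjusted p under 0.05. Filled symbols appear only without NC replicate 2, for TLR4 and NFKB1, and TLR2 lies on both sides of 0.

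Among all genes tested the 4 genes held ordinary positions. An absolute log2 fold change larger than that of TLR4 was found for 24.1% of genes, larger than that of NFKB1 for 45.1%, larger than that of MYD88 for 53.8% and larger than that of TLR2 for 97.1%. The median log2 fold change of the 4 was 0.17, against -0.0043 over all genes tested, and the median absolute value was 0.167 against 0.164.

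**Figure D4:**
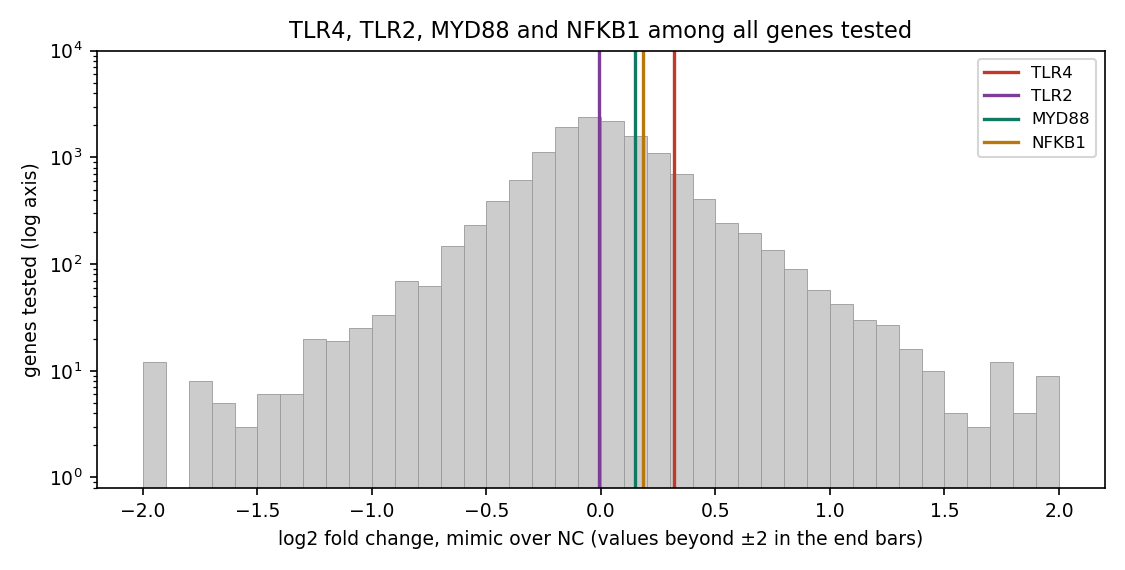
Histogram of the log2 fold changes of all 13949 genes tested (grey bars, log axis of gene numbers, values beyond 2 in either direction placed in the end bars), with lines at TLR2, MYD88, NFKB1 and TLR4 from left to right. All 4 lines fall in the dense centre of the distribution, between -0.0083 and 0.32.

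The separation of the groups depended on the scaling for MYD88 and NFKB1. With TMM the groups did not overlap for MYD88 and NFKB1, 2 of the 4 genes tested, and over all genes tested they did not overlap for 34.2%. They did not overlap for CD14 either, which is not among the genes tested. With library size as the only scaling 36.1% of genes tested did not overlap, and this held for 0 of the 4, as NFKB1 then reached 121.7 CPM in NC against a lowest mimic value of 118.6 CPM, and MYD88 43.6 against 42.2 CPM, while CD14 kept its separation. With RLE scaling MYD88 overlapped by a narrow margin and NFKB1 did not. An exact permutation test of each gene's CPM, two-sided, gave p = 0.3 for TLR4, 1 for TLR2 and 0.1 for CD14, MYD88 and NFKB1. The value of 0.1 is the smallest that 3 against 3 libraries can give.

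Ratios of counts within a library carry no scaling and were compared as a description, with no test. NFKB1 held 2.52, 3.25 and 2.50 counts per count of MYD88 in NC replicates 1, 2 and 3 and 2.72, 2.96 and 2.76 in mimic replicates 1, 2 and 3. The mimic libraries lay inside the NC range, at means of 2.81 ± 0.126 and 2.76 ± 0.427 (SD, n = 3), and NC replicate 2 was the highest of all. TLR4 held 3.08, 2.62 and 1.86 counts per count of TLR2 in NC and 2.76, 2.93 and 3.58 with the mimic. These ranges overlapped as well, with means of 2.52 ± 0.613 and 3.09 ± 0.431. Mimic replicate 3 had the highest ratio and NC replicate 3 the lowest.

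The rows whose log2 CPM followed the genes most closely over the 6 libraries were sought among 12991 other Ensembl rows. For TLR4 this was ENSBTAG00000050055, with a Pearson correlation of 0.997 over 6 libraries. It was high in NC replicate 2 and mimic replicate 3, at 7.42 and 8.20 CPM against 6.28 to 7.29 CPM in the others. For TLR2 it was ENSBTAG00000023792 (0.985), whose lowest value, 10.3 CPM, was in NC replicate 1, as for TLR2. For MYD88 it was ENSBTAG00000018463 (0.995), an abundant transcript that varied only from 3800 to 3990 CPM. These rows have no symbol in the sources used here, and none of them passed the test (edgeR adjusted p = 0.418, 0.927 and 0.576). A correlation over 0.9 was reached by 0.700%, 0.685% and 3.42% of the rows with TLR4, TLR2 and MYD88, which is 91, 89 and 444 rows. All rows share the same libraries and their scaling. Each named row is the highest of 12991 correlations over only 6 libraries, and such a search returns high values for unrelated rows too. Whether any named row is linked to its gene was not tested.

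Reads from overlapping genes may be part of 2 of the 5 values, since no strand setting is given in the sources used here. In the RefSeq annotation of the assembly ARS-UCD2.0, which is not the build named by the submitters, TLR2 overlapped RNF175, a protein-coding gene, and NFKB1 overlapped 2 long non-coding RNA genes. TLR4, CD14 and MYD88 overlapped no other gene there.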

How the data were processed

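Raw whole-number counts for each gene row were deposited by the authors, 1 file per library. HISAT2, DESeq2 and the build UMD3.1 are listed without versions or roles, per the submitters' processing notes. The sources used here do not give the counting tool, the annotation or the strand setting. Symbols of the 5 genes came with their choice and could not be checked, as the reference table paired 0 of the 28522 identifiers with a symbol. For the same reason other pathway genes, cell type markers, sequences and the level of miR-199a-3p itself were not analysed here. The genes, lists and tests were chosen with earlier results of these data known.

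Counts were tested with edgeR 4.0.16 in R 4.3.3 (quasi-likelihood, TMM, group as the only term, filterByExpr with minimum count 10 and total 15), with Benjamini-Hochberg adjustment. Intervals are at 95% and cover the fitted spread, and Poisson and ratio intervals cover counting error only. The alternatives used limma 3.58.1, DESeq2 1.42.0, other scalings and filters, and the omission of each library. The procedure was tested on simulated data in which no library was made to stand apart. That test therefore does not bear on the results that depend on NC replicate 2. Same-group libraries differed beyond sampling noise (chi-square per degree of freedom 2.61 to 35.7). The text names the 5 genes and the closest row per gene, limited to 2 rows estimated higher and 2 lower because they have no symbols. The row closest to NFKB1 fell outside that limit. CD14 had a mean under 10 counts and was not used for that search. Within-library ratios and the unfiltered alternatives for CD14 were chosen after values were seen. Plots were drawn with matplotlib 3.10.9.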

Additional observations from a re-analysis of the deposited data

How the results depend on the processing

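Of 15 alternatives, 13 called 0 of the genes they tested. CD14 was tested only in the alternative without the filter on low counts. With limma-voom with quality weights and without NC replicate 2, 2 genes were called (leaving out 1 library gave 0 to 2). With the quality weights the log2 fold change was 0.46 for TLR4 and 0.25 for NFKB1. Leaving out 1 library gave 0.17 to 0.50 for TLR4, 0.11 to 0.26 for NFKB1, 0.09 to 0.21 for MYD88, -0.21 to 0.14 for TLR2 and, without the filter, 1.47 to 2.09 for CD14. TLR2 turned to 0.042 with limma-voom, 0.089 with quality weights, 0.0050 with the replicate block, 0.14 without NC replicate 2, 0.066 without NC replicate 3 and 0.0033 without mimic replicate 2, all with intervals that include 0. Over all genes 1643 changed, 2683 with quality weights, and 472 to 3460 without 1 library: the numbers were 3460 and 951 when NC replicate 2 or 3 was left out, and 472, 510 and 520 when mimic replicate 1, 2 or 3 was. The cause was not tested.

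A replicate block on the labels' numbers called 1411 genes and 0 of the 4 tested. Log2 fold changes were 0.32 for TLR4, 0.15 for MYD88, 0.19 for NFKB1 and, without the filter, 1.77 for CD14. Libraries of the same number deviated from their group means with correlations of only 0.0031 to 0.054, and the best match of NC replicate 3 was another number, so no pairing was assumed. The settings for other pathway genes were not run, as no symbol was paired with an identifier. DESeq2 without the filter gave CD14 no adjusted p. CD14 rests on 38 counts in all 6 libraries.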
